A study of Bos taurus with 19 samples.

Results

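The genes described here are 6 of the mitochondrially encoded genes of cattle, in subcutaneous adipose tissue of bull calves on a high or a low plane of nutrition. They were chosen by identifier: COX1 (ENSBTAG00000043561), COX2 (ENSBTAG00000043556), COX3 (ENSBTAG00000043560), CYTB (ENSBTAG00000043550), ND1 (ENSBTAG00000043558) and ENSBTAG00000043568. They are 6 of 25670 genes counted in the files. All 6 passed the filter on low counts, which left 10064 genes to test. All animals were Holstein-Friesian males reared on milk replacer and concentrates and killed with sodium pentobarbitone at a mean age of 126 days, and the tissue was taken under the skin of the flank. The high plane of nutrition group held 10 calves fed for a growth rate of 1.08 kg per day, and the low plane group held 9 calves fed for 0.5 kg per day, as the labels give these rates. The paper assigned 10 calves to each diet and states a slightly higher rate for the low group, so the low group here is not complete. Each library came from 1 animal and was made from mRNA, and no tissue was pooled. The data are read counts per gene, which sum to 8608800 to 17691547 per library in the high group and 7656100 to 12348770 in the low group.

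No reference table used here pairs the cattle identifiers with symbols, so the symbols supplied with the 6 identifiers were checked against their place in the files. The 6 rows lay in a run of 37 consecutive rows with neighbouring identifiers, and RefSeq (ARS-UCD2.0) lists 37 genes on the mitochondrial chromosome. The 15 rows of the run with the most reads stood at the 15 places where RefSeq has an mRNA or an rRNA. For 5 of the genes the supplied symbol matched the place in the run. The symbol supplied with ENSBTAG00000043568 was ND4, which RefSeq has at place 28, whereas the row stood at place 25, where RefSeq has ND3. Both are subunits of complex I, and since the supplied symbol and the place disagreed, that gene is given by its identifier alone. The log2 fold change that the paper lists for ND3 matches the one found here for ENSBTAG00000043568. Its value for ND4 matches the row at place 28, ENSBTAG00000043577. Place and fold change thus both point to ND3 rather than ND4. The 5 symbols that are used rest on the supplied names and this check of place. Markers of adipocytes, muscle, immune cells and other cells, and the nuclear subunits of the respiratory chain, were not analysed here for the same lack of paired names. The tissue label was therefore not checked against defining markers. The mitochondrial coordinates of the build used in the files were likewise not used here.

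The respiratory chain is a set of protein complexes in the inner mitochondrial membrane that passes electrons from nutrients to oxygen and pumps protons, and the proton gradient then drives ATP synthesis. Most of its subunits are encoded in the nucleus, but a core of hydrophobic subunits is encoded in the mitochondrial genome itself. That genome is a small circle present in many copies per cell. It is transcribed as long precursor RNAs that hold several genes each and are mostly cut at tRNAs, although not every pair of neighbouring genes has a tRNA between them. The amount of each mature mRNA then depends on transcription, on cutting and on how long the RNA lasts. In white adipose tissue, mitochondria also supply precursors for the synthesis of fatty acids.

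The 6 genes were lower in the low plane of nutrition than in the high plane, by 2.05-fold for ENSBTAG00000043568 up to 3.24-fold for COX1. All 6 had an adjusted p below 0.05 and a fold change above 2 (edgeR quasi-likelihood test, Benjamini-Hochberg adjustment over 10064 genes). Over all genes tested, 539 met these criteria as lower in the low group, which is 5.36%, and 1865 (18.5%) were lower by the adjusted p alone. The median log2 fold change (low minus high) was -1.28 over the 6 genes and 0.02 over all genes tested. In a bulk tissue sample, fewer cells of a mitochondria-rich type and less mitochondrial RNA per cell cannot be told apart. The paper's histology of this tissue found more adipocytes, of larger diameter, in the high group. The part of that difference in the values given here was not tested. High animals D64 and D75 stood apart from their group on the first dimension of a multidimensional scaling. That scaling drew on the tested genes that differed most between each pair of libraries, not on all of them. The other high animals lay between 0.29 and 1.89. D64 and D75 lay at -0.36 and -0.37, within the range of the low animals (-1.57 to -0.08). Without both, the log2 fold changes of the 6 genes ran from -1.20 (ND1) to -1.91 (COX1), and all 6 were past both thresholds. D64 and D75 also had the lowest shares of counts on the 6 genes in the high group, 3.02% and 2.62%. Leaving them out therefore widens the difference and is no check of it.

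Together the 6 genes took 6.02% ± 3.17 (SD, n = 10) of all counts on genes in the high group against 2.68% ± 0.914 (SD, n = 9) in the low group. The share in the high group ran from 2.62% in D75, over a median of 5.29%, to 11.2% in D62. In the low group it ran from 1.53% in D66, over a median of 2.51%, to 4.45% in D67. Counting error was small beside this spread: the 95% Wilson interval was 11.2% to 11.3% in D62 and 2.61% to 2.63% in D75, and it covers counting error only.

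The high group was itself spread out. Animals D62, D72 and D65 stood above the rest, at 11.2%, 10.2% and 9.39% of counts. Animals D74 (5.97%), D63 (5.57%) and D71 (5.01%) followed, all above the highest low animal. The other 4, D73 (4.03%), D61 (3.11%), D64 (3.02%) and D75 (2.62%), lay inside the range of the low group. The difference of the group means was 3.34 percentage points. It was 2.76 points without D62 and 4.14 points without D64 and D75. No test was made of this sum, since the genes were chosen with results of these data known.

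**Figure D1:**
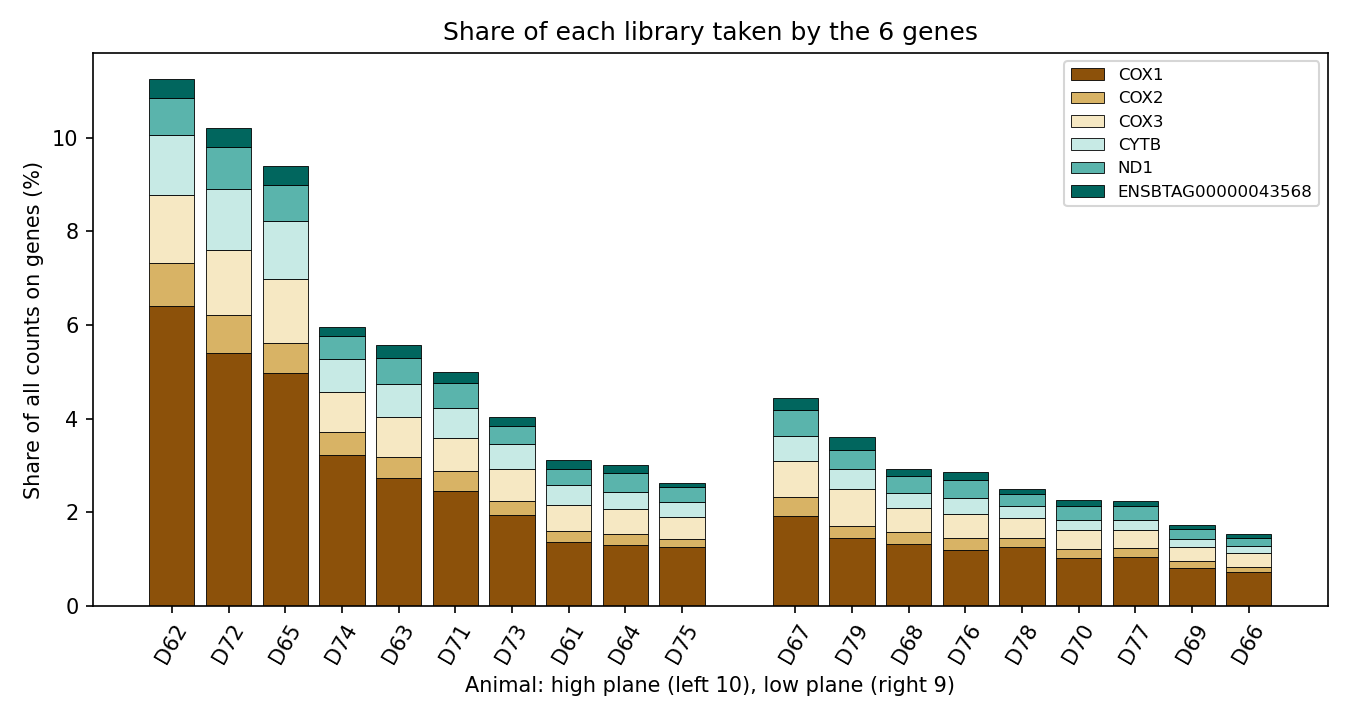
The stacked bars show, for each animal, the share of all counts on genes (%) that fell on each of the 6 genes, with the 10 high plane animals on the left and the 9 low plane animals on the right, each in falling order. D62 reached 11.2%, the low animals lay between 1.53% and 4.45%, and 4 high animals lay within that range.

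COX1, COX2 and COX3 encode the core of cytochrome c oxidase, complex IV, where oxygen is reduced to water. COX1 holds the centre at which oxygen is bound. It had the fourth highest share of counts of all genes tested and took 49.8% ± 4.39 (SD, n = 10) of the counts on the 6 genes in the high group and 45.2% ± 3.01 (SD, n = 9) in the low group. These are shares of reads, which grow with the length of a gene, and levels are compared below between animals only, not between genes. They are given as CPM, counts brought to the same fixed total in every library, after TMM scaling, which sets the libraries on a common scale from most of their genes.

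The COX1 level in the high group ran from 13116 CPM in D75, over a median of 27919, to 77158 in D62. In the low group it ran from 6313 CPM in D66, over a median of 10846, to 17472 in D67. All 9 low animals lay below the median of the high group, whereas 3 high animals, D61 (14327 CPM), D64 (13259) and D75, lay below D67. The means were 35126 ± 23144 CPM (SD, n = 10) and 10845 ± 3409 (SD, n = 9), a log2 fold change of -1.70 with a standard error of 0.335 (edgeR adjusted p = 0.000827).

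COX2 carries the copper site that takes electrons from cytochrome c. Its level ran from 1789 CPM (D75), over a median of 4684, to 11037 (D62) in the high group and from 911 (D66), over a median of 1987, to 3629 (D67) in the low group. Here 4 high animals lay below D67, and 82 of the 90 possible pairs of a high and a low animal had the higher value in the high animal. The level was 2.62-fold higher in the high group, with a log2 fold change of -1.39, a standard error of 0.323 and an edgeR adjusted p of 0.00258.

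COX3 is the member of this core without a metal centre. It ranged from 5104 CPM (D75), over a median of 8379, to 17337 (D62) in the high group and from 2647 (D66), over a median of 3884, to 7365 (D79) in the low group. Its log2 fold change was -1.16 with a standard error of 0.273 (edgeR adjusted p = 0.00279), and 84 of the 90 pairs were higher in the high animal. The 3 genes of complex IV thus shared their lowest animals, D75 in the high group and D66 in the low group, and their highest high animal, D62.

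CYTB encodes cytochrome b, the subunit of complex III that the mitochondrial genome supplies and at which ubiquinol gives up its electrons. Its level in the high group ran from 3255 CPM in D75, over a median of 7063, to 15599 in D72. In the low group it ran from 1340.3 CPM in D66, over a median of 2621, to 4872 in D67. The groups overlapped in the same way as for COX1, with 3 high animals below the top low animal and 85 of 90 pairs higher in the high animal. The log2 fold change was -1.65 with a standard error of 0.322, and its edgeR adjusted p of 0.00077 was the lowest of the 6 genes.

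ND1 encodes a membrane subunit of NADH dehydrogenase, complex I, close to where ubiquinone is reduced. It ranged from 3280.5 CPM (D75), over a median of 5584, to 10854 (D72) in the high group and from 1310.3 (D66), over a median of 2723, to 5035 (D67) in the low group. The fold change of ND1 was 2.08 (log2 fold change -1.06, standard error 0.258, edgeR adjusted p = 0.00354). All 9 low animals lay below the high median of ND1, and 4 high animals lay below D67.

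ENSBTAG00000043568 separated the diets least. Its level ran from 890.4 CPM (D75), over a median of 2401, to 4950.3 (D72) in the high group and from 796 (D66), over a median of 1089, to 2594 (D79) in the low group. There were 5 high animals below the top low animal, 7 of 9 low animals lay above D75, and 75 of 90 pairs were higher in the high animal. The log2 fold change was -1.04 with a standard error of 0.299 (edgeR adjusted p = 0.0107).

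**Figure D2:**
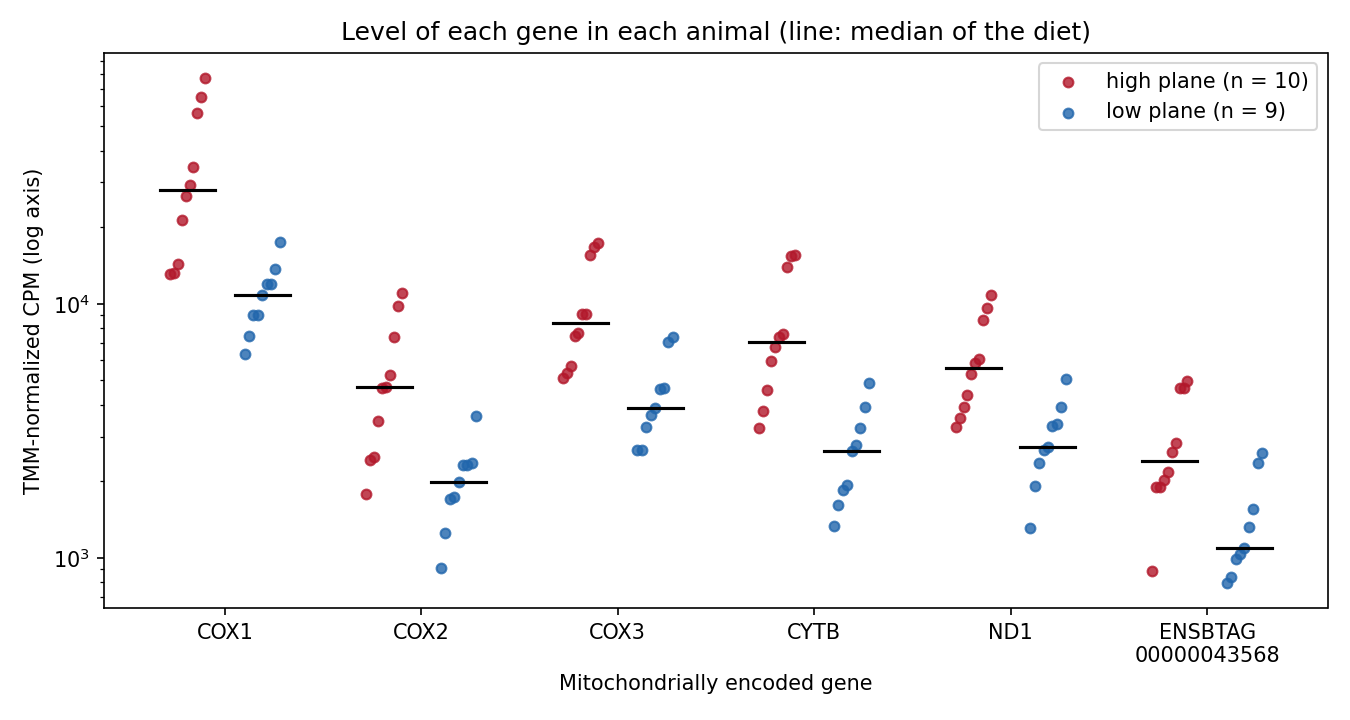
Each point is the TMM-normalized CPM of a gene in an animal, on a log axis, for the 6 genes, with the 10 high plane animals in red, the 9 low plane animals in blue and a line at each group's median. The diets overlap for every gene, with 3 high animals below the top low animal for COX1, COX3 and CYTB and 5 for ENSBTAG00000043568.

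The fold changes of ND1 and ENSBTAG00000043568 lay close to the threshold of 2. Both fell short of it when D62, D65, D72 or D66 was left out, with log2 fold changes down to -0.93 for ND1 and -0.92 for ENSBTAG00000043568, both without D72. The latter also fell short without D69 or D77. The edgeR adjusted p of every one of the 6 genes stayed below 0.05 in all 19 fits that left out an animal, the highest being 0.0235. COX1 ran from -1.82 without D67 to -1.49 without D62 in these fits.

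The scaling moved all 6 values together. TMM factors were 0.829 to 0.987 in the high libraries and 1.05 to 1.15 in the low libraries. With total counts as the only scaling, the median of all genes rose to 0.30 on the log2 scale, and COX1 (-1.38), CYTB (-1.34) and COX2 (-1.08) passed both thresholds while COX3 (-0.86), ND1 (-0.76) and ENSBTAG00000043568 (-0.74) passed by the adjusted p alone. Relative to the median of all genes, the values under that scaling were -1.68 for COX1 and -1.03 for ENSBTAG00000043568, against -1.72 and -1.06 under TMM.

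Mean library size was higher in the high group, and its relation to COX1 was examined within each of them; the other 5 genes were not examined in this way. The largest libraries, D72 (17691547 counts) and D65 (16690045 counts), were of high animals, and the smallest, D78 (7656100 counts), was of a low animal. Within the 10 high animals, the log2 level of COX1 and log2 library size had a Pearson r of 0.706 (permutation p = 0.0225, adjusted over 2 relations 0.0449) and a Spearman rho of 0.648 (permutation p = 0.0487, adjusted 0.0973). Without D72 and D65, the animals of most extreme library size, r was 0.478 (n = 8, exact permutation p = 0.234), so the relation no longer passed over this narrower range with fewer animals. Within the 9 low animals r was -0.20 (exact permutation p = 0.604) and rho was -0.23 (exact permutation p = 0.552), both without a call, and r was -0.23 without D78 and D76 (exact permutation p = 0.624). The study's methods pooled the libraries for sequencing lanes, and the lane of each library is not given in the sources used here, so lane was not tested. With log2 library size as a covariate in the edgeR fit, COX1 (log2 fold change -1.20, adjusted p = 0.0336) and CYTB (-1.15, adjusted p = 0.0307) remained past both thresholds. COX2, COX3, ND1 and ENSBTAG00000043568 did not, with log2 fold changes of -0.91, -0.77, -0.66 and -0.57 and adjusted p of 0.0845, 0.082, 0.0955 and 0.241. The part of library size in the difference between diets was not tested beyond these values.

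**Figure D3:**
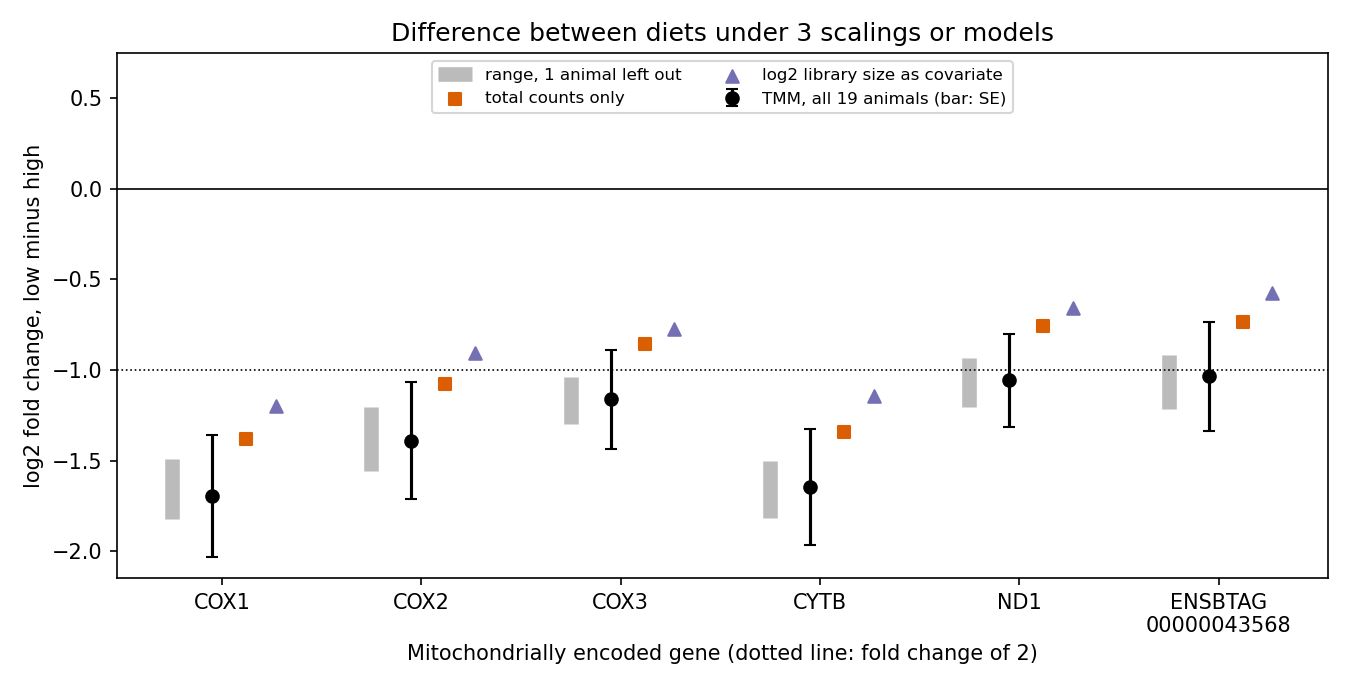
The log2 fold change (low minus high) of each gene is drawn as a black point with its standard error for TMM scaling and 19 animals, a grey bar for the range when 1 animal is left out, an orange square for total counts and a purple triangle for library size as a covariate. All values lie below 0, from -1.82 for COX1 without D67 to -0.57 for ENSBTAG00000043568 with the covariate, and the dotted line marks a fold change of 2.

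**Figure D4:**
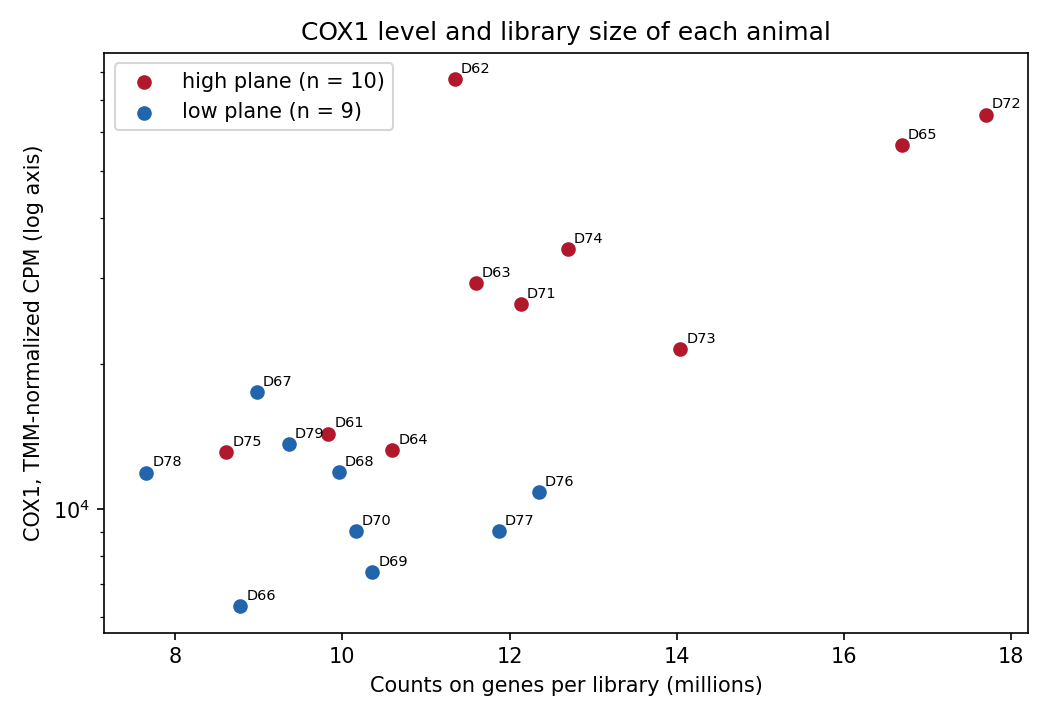
Each point is an animal, with counts on genes per library on the horizontal axis and TMM-normalized CPM of COX1 on a vertical log axis. D62 had the highest COX1 level (77158 CPM) in a library of 11341207 counts, whereas D72 and D65 had the largest libraries, 17691547 and 16690045 counts.

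Since the mature RNAs are cut from shared precursors, the question of whether the 6 genes moved by equal amounts was put to their ratios. A ratio of the counts of a pair of genes within an animal does not change with the factor by which its library is scaled. The ratio given for a group is the geometric mean over its animals. Whether the ratios varied with library size across animals was not tested, and library size was not fitted to them. All 15 pairs were compared between the diets with an exact two-sided permutation test over the 92378 splits of the animals into 10 and 9. After adjustment over the 15 pairs, 8 of the 15 had an adjusted exact permutation p below 0.05. The 15 ratios are built from 6 genes and are not independent of each other. Pairs of other tested genes were not compared, so the count cannot be read as particular to the 6 genes.

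COX1 and CYTB fell by more than the others. The CYTB to ENSBTAG00000043568 ratio was 2.86 in the high group and 1.93 in the low group, a difference of -0.57 on the log2 scale (SE 0.107, adjusted exact permutation p = 0.00122). In 9 of 10 high animals this ratio lay above that of every low animal. The ratio of CYTB to ND1 was 1.28 against 0.895, a log2 difference of -0.52 (SE 0.114, adjusted exact permutation p = 0.00244), and 8 of 10 high animals lay above every low animal. The COX3 to CYTB ratio ran the other way, from 1.23 in the high group to 1.68 in the low group, a log2 difference of 0.45 (SE 0.0785, adjusted exact permutation p = 0.00122). On the log2 scale its values were 0.10 to 0.65 in the high animals and 0.52 to 0.98 in the low animals, and D75 was the high animal inside the low range.

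COX1 moved against its partners in complex IV as well. Its ratio to COX3 fell from 3.23 to 2.5 (log2 difference -0.37, SE 0.116, adjusted exact permutation p = 0.0189), and its ratio to COX2 fell from 6.42 to 5.5 (log2 difference -0.22, SE 0.0781, adjusted exact permutation p = 0.0223). The ratios of COX1 to ND1 and to ENSBTAG00000043568 differed by -0.44 (SE 0.146) and -0.49 (SE 0.167), each with an adjusted exact permutation p of 0.0223. COX2 fell by less than CYTB, with a log2 difference of the COX2 to CYTB ratio of 0.30 (SE 0.0816, adjusted exact permutation p = 0.00731).

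The other 7 pairs did not pass. COX1 to CYTB differed by 0.08 (SE 0.0933, adjusted exact permutation p = 0.455), so that an unequal change of these leading genes was not detected. COX3, ND1 and ENSBTAG00000043568 differed among themselves by -0.12 to -0.05, with standard errors of 0.0947 to 0.13 and adjusted exact permutation p of 0.392 to 0.726. COX2 to COX3, to ND1 and to ENSBTAG00000043568 differed by -0.15, -0.22 and -0.27, with adjusted exact permutation p of 0.333, 0.124 and 0.132. Without D75 the COX2 to ND1 ratio passed (log2 difference -0.28, adjusted exact permutation p = 0.0276). Thus COX1 and COX3, both of complex IV, changed unequally, whereas for COX3 and ND1, of complexes IV and I, the difference was -0.07 with a standard error of 0.0947 and did not pass.

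**Figure D5:**
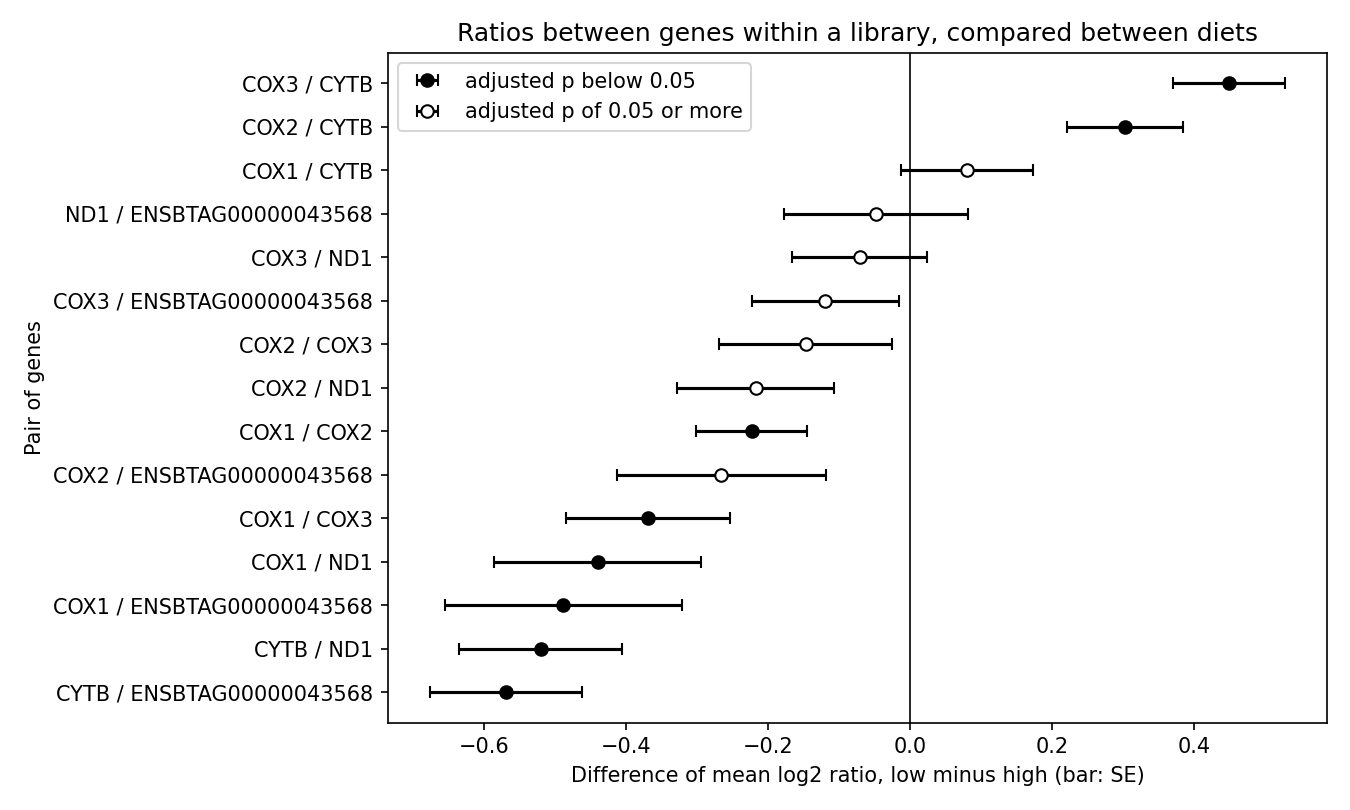
Each point is the difference between diets (low minus high) in the mean log2 ratio of a pair of the 6 genes, with its standard error, for all 15 pairs; filled points are those with an adjusted exact permutation p below 0.05. CYTB to ENSBTAG00000043568 lies lowest at -0.57 and COX3 to CYTB highest at 0.45.

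With the diet means removed, the 6 genes rose and fell together over the animals of both diets. After the diet means were subtracted, the log2 levels of the 6 genes had a Pearson r with each other of 0.875 to 0.982 over the 19 animals, which share libraries and scaling. No r was taken for each diet alone. The high group was the more spread, with an SD of COX1 of 0.953 on the log2 scale against 0.452 in the low group. The r of every other tested gene with the mean of the 6 was taken in the same way, and its median over 10058 genes was 0.009. Of the 10 genes most like the 6, 7 lay in the same run of 37 rows, with the highest r at 0.982. Outside the run the highest r was 0.937, and 130 genes had an r above 0.8. These outside genes are not named here, since no table pairs their identifiers with symbols.

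The remaining 31 rows of the run gave the setting of the 6 genes on their chromosome. Of these, 12 passed the filter on low counts, and 9 of the 12 were lower in the low group past both thresholds, with log2 fold changes of -1.85 to -1.16. Over all genes tested, 5.36% met these criteria. Among the 9, ENSBTAG00000043545 and ENSBTAG00000043582 stood at places where RefSeq has tRNAs. ENSBTAG00000043545 had a mean of 12.4 CPM in the high group and 4.46 CPM in the low group. It may have passed the filter of 5 CPM mainly through the high group, so its call carries little weight. The other 3 of the 12 rows had a positive log2 fold change without passing the test, and 2 of these stood at the places where RefSeq has the rRNAs. The 19 rows that were not tested held few reads, at most 331 in all libraries together. The whole run took 8.22% ± 4.13 (SD, n = 10) of counts in the high group and 3.8% ± 1.34 (SD, n = 9) in the low group.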

How the data were processed

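Single-end mRNA-seq reads were aligned by the authors to the bovine genome (UMD3.1) with STAR, kept where they mapped uniquely, and assigned to Ensembl genes with HTSeq. The authors deposited the resulting raw counts, 1 table for each of 19 animals. Unique mapping drops reads shared with nuclear copies of mitochondrial sequence, and the effect on these genes was not tested. The library kit does not record strand, so antisense reads cannot be told apart. Calves had been blocked by sire, weight, farm and age before they were allotted to a diet, but the blocks are not in the labels and were not fitted. Counts were tested here with edgeR 4.0.16 in R 4.3.3 (TMM, quasi-likelihood test, low against high, no covariate), on genes at 5 CPM or more in 9 or more animals (5 CPM is 38.3 reads in the smallest library), Benjamini-Hochberg adjusted. A call needed an adjusted p below 0.05 and a fold change above 2. Log2 CPM for correlations used a prior count of 2. Ratios used exact permutation tests (scipy 1.17.1). Scripts were tested on simulated data. No pair of libraries within a diet differed by as little as sampling noise. The named genes are the 6 chosen by identifier. The genes and lists were chosen with earlier results of these data known. Alternatives used DESeq2 1.42.0, limma 3.58.1, other scalings, filters and animals. The relation of COX1 to library size, 2 further scalings and the ratios to 2 other rows of the run were added after seeing the data. Levels per gene length and the lists of nuclear subunits and cell markers were not analysed here.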

Additional observations from a re-analysis of the deposited data

Results flagged for a closer look

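In the ratio of ND1 to ENSBTAG00000043568, high animal D75 stood apart from the other 9 high animals, with a log2 ratio of 1.88 against 1.28 in the nearest of them, a gap of 0.609 of the whole range of the group. Of 46 sets of values examined by Dixon's criterion, each the values of a diet group, this was the 1 set singled out, where chance gives about 1 in 20, or 2.3 of 46.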

How the results depend on the processing

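All 6 fold changes kept their direction under every alternative run, with each animal left out included. With total counts only, 3 of the 6 genes passed both thresholds. With log2 library size as covariate, 2 passed both thresholds and the same number, 2, passed by the adjusted p alone, with COX2 at -0.91, COX3 at -0.77, ND1 at -0.66 and ENSBTAG00000043568 at -0.57; the cause was not tested. Leaving out each animal gave 4 to 6 genes past both thresholds. All 6 passed both under upper quartile and DESeq2 scaling, no filter, filterByExpr, the edgeR exact test, DESeq2 and limma voom. The same held with the 6 genes or the 37 rows left out of the scaling, both of these scalings being added after seeing the data. All 6 also passed both without D64 and D75, the high animals with the lowest shares, but leaving these out widens the difference and is no check. The count of all genes called lower, 539, became 315 with total counts, 1103 with no filter and 334 with the covariate. The ND1 to ENSBTAG00000043568 difference changed sign, to 0.029 without D64 and D75, and ran from -0.088 to 0.032 when 1 animal was left out. With the rows at the 2 rRNA places left out of the total, the difference in summed share stayed at 3.34 percentage points. No paired analysis was possible because the blocks in which calves were assigned to diet are not given in the labels and the diets share no replicate number. The 37 rows stood in for all mitochondrial genes; the nuclear lists were not run, since no table pairs identifiers with names.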

Other observations

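ENSBTAG00000043567 and ENSBTAG00000043570 stood at places 2 and 4 of the run, where RefSeq has the 2 mitochondrial rRNA genes, a reading that rests on place alone. The libraries were made from mRNA, so reads at an rRNA are those left after selection, and how far selection differed between libraries was not tested. Both rows together took 0.0832% ± 0.0412 of counts in the high group (SD, n = 10) and 0.126% ± 0.0632 in the low group (SD, n = 9). ENSBTAG00000043567 had 340 ± 161 CPM in the high group (SD, n = 10) and 440 ± 235 in the low group (SD, n = 9), with a log2 fold change of 0.37, a standard error of 0.318 and an edgeR adjusted p of 0.371. ENSBTAG00000043570 had 594 ± 363 CPM (SD, n = 10) and 694 ± 352 CPM (SD, n = 9), with a log2 fold change of 0.23, a standard error of 0.358 and an edgeR adjusted p of 0.645. Both were chosen after their values were seen, as the tested rows of the run with a positive fold change and the most reads, so their ratios to the 6 genes are a description with no test. Within an animal, COX1 had 94.1 times the reads of ENSBTAG00000043567 in the high group and 27.3 times in the low group, as geometric means over the animals. On the log2 scale these ratios ran from 5.67 to 7.23 in the high animals and from 3.46 to 5.58 in the low animals, so the diets did not overlap. Such a ratio moves with its denominator as well as with COX1, so the separation cannot be ascribed to COX1 alone. The diets likewise did not overlap for COX2, COX3, CYTB and ND1 against ENSBTAG00000043567 and for COX2, CYTB and ND1 against ENSBTAG00000043570, which makes 8 of the 12 ratios in all. How many other tested genes also separated the diets against these rows was not counted. The count therefore cannot be read as particular to the 6 genes. Animal D75, the lowest high animal in the level of every one of the 6 genes, lay above every low animal in these 8 ratios, which follows from the absence of overlap and is no separate result. With the diet means subtracted, both rows were less like the mean of the 6 genes than the 6 were like each other, with an r of 0.738 and 0.785 against 0.875 or more.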
